A study of Mus musculus with 12 samples.

Results

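The Cyp2d genes are a cluster of cytochrome P450 genes on mouse chromosome 15, and 9 of them were listed by symbol: Cyp2d9, Cyp2d10, Cyp2d11, Cyp2d12, Cyp2d13, Cyp2d22, Cyp2d26, Cyp2d34 and Cyp2d40. Of the 54532 genes in the liver table, 8 carried one of these symbols, and 6 of the 8 had a mean of at least 1 FPKM (fragments scaled by gene length and library size) over the mice and were tested. Cyp2d12 and Cyp2d34 were below that level, and Cyp2d13 had no row. The rows were found by symbol alone, but the family was selected on earlier results from these same FPKM values, so its differences between diets are given as a description of these livers and the p-values are not independent evidence. Liver RNA was measured in 12 male C57BL/6J mice, 3 in each of 4 groups, after 26 weeks on the diets, which began at 5 weeks of age. ND-fed mice received a normal diet and control mice a high-fat diet. HYA-treated mice received the high-fat diet with 1% HYA, a hydroxy fatty acid that gut bacteria make from linoleic acid, and LA-treated mice the high-fat diet with 1% LA, linoleic acid itself. All 4 groups thus share sex, strain and age, and the HYA and LA groups share the high-fat diet of the control group.

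Cytochrome P450 enzymes of the Cyp2d subfamily sit in the endoplasmic reticulum of hepatocytes, hold a heme group and take electrons from cytochrome P450 reductase (Por) to add oxygen to drugs, steroids and other lipophilic compounds. The human family has a single active gene, CYP2D6, known for its role in drug metabolism, whereas the mouse has several genes and many pseudogenes side by side. Cyp2d9 encodes a testosterone hydroxylase known to be higher in male than in female liver under the pulsed growth hormone of males, and Cyp2d22 is the mouse gene usually named as closest in function to human CYP2D6. For Cyp2d10, Cyp2d26 and Cyp2d40 no single defining substrate is known.

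Promoter windows of 300 bases, 250 before and 50 after a start position in the gene, were available from RefSeq (build GRCm38.p6) for 5 of the 9 genes. They are shown for Cyp2d9 and Cyp2d10, which were lower in the high-fat groups, and for Cyp2d26, which was close to the ND-fed level in them. The windows lie at chr15:82452127-82452426 on the plus strand for Cyp2d9, at chr15:82407145-82407444 on the minus strand for Cyp2d10 and at chr15:82794196-82794495 on the minus strand for Cyp2d26. Each is written 5′ to 3′ in the direction of the gene, and capitals mark TTTATA, the reverse complement of the TATA box letters TATAAA, and in Cyp2d26 also ATTAAC, the reverse complement of the HNF1 half-site letters GTTAAT.
Cyp2d9: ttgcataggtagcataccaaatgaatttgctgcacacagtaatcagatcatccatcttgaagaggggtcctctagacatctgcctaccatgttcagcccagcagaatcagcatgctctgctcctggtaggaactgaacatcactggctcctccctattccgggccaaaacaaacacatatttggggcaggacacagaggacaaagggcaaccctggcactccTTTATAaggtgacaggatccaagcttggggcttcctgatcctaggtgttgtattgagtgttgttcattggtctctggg
Cyp2d10: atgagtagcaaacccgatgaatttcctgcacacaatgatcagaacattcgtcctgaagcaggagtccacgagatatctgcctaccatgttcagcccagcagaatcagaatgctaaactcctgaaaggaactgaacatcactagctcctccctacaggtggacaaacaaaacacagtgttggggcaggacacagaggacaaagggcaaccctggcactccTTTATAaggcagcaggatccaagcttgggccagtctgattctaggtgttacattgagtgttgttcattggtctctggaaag
Cyp2d26: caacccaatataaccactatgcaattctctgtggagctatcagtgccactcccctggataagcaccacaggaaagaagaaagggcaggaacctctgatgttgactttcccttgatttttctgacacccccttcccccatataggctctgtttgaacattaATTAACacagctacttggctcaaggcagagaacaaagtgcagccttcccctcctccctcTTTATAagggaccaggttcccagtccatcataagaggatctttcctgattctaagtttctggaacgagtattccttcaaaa
TTTATA began 28 bases upstream of the start position of the window in Cyp2d9 and 31 bases upstream in both Cyp2d10 and Cyp2d26. The RefSeq models of Cyp2d10 and Cyp2d26 reach to chr15:82407253 and chr15:82794452, upstream of that position. Their TTTATA therefore lies within these gene models. All 5 windows held the TATA box letters on one strand or the other, against 13.6% of 32851 RefSeq promoters of the same length. Leaving out gaps, the Cyp2d9 promoter was identical to that of Cyp2d11 at 94.0% of 284 aligned bases. It was identical to that of Cyp2d10 at 85.1% of 296, to that of Cyp2d40 at 81.9% of 237 and to that of Cyp2d26 at 65.9% of 261. Cyp2d40, like Cyp2d26, was close to the ND-fed level in control mice. Whether promoter likeness bears on the differences was not tested. The letters TTCNNNGAA of a STAT5 site, the factor that acts downstream of growth hormone, occurred in 0 of the 5 windows and in 8.30% of all promoters. The HNF4A letters CAAAGTCCA (0.475% of all promoters) and the shorter AAAGTCCA within them (1.25%), the C/EBP letters TTGCGCAA (0.183%) and the ETS letters CCGGAAG (8.86%) were likewise in 0 of the 5. AGGTCA, the half-site of many nuclear receptors, was in 1 window, that of Cyp2d40 (16.3% of all), and the HNF1 half-site in 1, that of Cyp2d26 (7.10%). Both strands were searched, and a match is a description of the letters in these windows. In the coding sequence of the transcripts, Cyp2d9 was 92.5% identical to Cyp2d10 over 1512 aligned bases, 82.4% to Cyp2d26 and 78.9% to Cyp2d22. Because such relatives can share reads, stretches of 150 bases, the read length, were compared. Of those in the Cyp2d9 transcripts 98.3% occurred in no other gene, and the share was 95.5% for Cyp2d10 and 94.4% for Cyp2d11, which mostly shared their other stretches with each other. It was 100% for Cyp2d22, Cyp2d26 and Cyp2d40. How reads that fit several places were counted is not given in the sources used here.

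Recovered from the steps in the FPKM values, the fragments counted on genes came to 17169064 to 25220880 in each mouse, and Cyp2d9 alone was covered by 8208 to 30180 fragments per mouse. FPKM values were normalised by the authors to a library size that was not the sum of these fragments. When each mouse was rescaled to the same sum (TPM), the median of all genes in control against ND-fed mice moved from -0.04 to 0.18 on the log2 scale, and in HYA-treated against control mice from 0.02 to -0.10, so the differences below are read against that shift. Differences are given on the scale of log2(FPKM + 1) from a limma fit across 11083 genes, and the 2 thresholds of the study were used, a log2 fold change beyond 1 in size and an adjusted p (Benjamini-Hochberg) under 0.05. No source ties the 3 mice of a group to separate cages or litters, so the p-values measure the spread between these mice only.

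The first question was how the high-fat diet alone moved the Cyp2d genes. Cyp2d9 fell about 4-fold, Cyp2d10 and Cyp2d22 fell about 1.7-fold, and the other major transcript, Cyp2d26, was near its ND-fed level. Cyp2d9 RNA stood at 557, 649 and 632 FPKM in the 3 ND-fed mice and at 152, 145 and 167 FPKM in the 3 control mice. No control mouse came near the ND-fed range. The means were 612.8 ± 48.9 and 154.6 ± 11.7 FPKM (SD, n = 3), a 3.97-fold difference, and the log2 fold change was -1.98 (SE 0.10, limma with Benjamini-Hochberg adjustment, adjusted p = 6.32e-07). Rescaled to TPM it was -1.75, and relative to the median of all genes -1.93. Cyp2d9 lies at chr15:82433437-82456845 on the plus strand (GRCm38, ENSMUSG00000068086), and its gene length in the table, 2658 bases, was longer than the 1648 bases of Cyp2d10, which lowers its FPKM relative to a count of fragments. This model begins upstream of the RefSeq start used for the promoter window.

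Cyp2d10 RNA was 466, 514 and 530 FPKM in ND-fed mice and 265, 319 and 292 FPKM in control mice. The groups did not overlap, and the mean was 1.72-fold lower in control mice, with a log2 fold change of -0.78 (SE 0.07, limma, adjusted p = 2.61e-05). Cyp2d22, the gene compared with human CYP2D6, was at 73.4, 73.6 and 83.2 FPKM in ND-fed mice and at 41.9, 48.2 and 45.2 FPKM in control mice. Its decrease was close in size to that of Cyp2d10, with a log2 fold change of -0.75 (SE 0.07, limma, adjusted p = 2.98e-05). Under TPM the log2 fold changes of Cyp2d10 and Cyp2d22 were -0.55 and -0.53, both still past the adjusted p threshold.

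Cyp2d26, the most abundant member over all mice at a mean of 463 FPKM, was at 471, 461 and 527 FPKM in ND-fed mice and at 394, 477 and 407 FPKM in control mice. The ranges overlapped and the log2 fold change of -0.19 (95% interval -0.37 to -0.01) did not pass the adjusted threshold (limma, adjusted p = 0.0897), and under TPM its sign turned to 0.04. Without control replicate 2, the control mouse at 477 FPKM, it was -0.28 and past the adjusted threshold (limma, adjusted p = 0.0166). Cyp2d40 was at 26.9, 31.7 and 37.0 FPKM in ND-fed mice and at 25.4, 35.2 and 30.1 FPKM in control mice. These ranges overlapped almost wholly, the log2 fold change was -0.07 (95% interval -0.35 to 0.20) and under TPM it was 0.16, so no direction can be given for either gene. Cyp2d11, the gene whose promoter was closest to that of Cyp2d9, was low and uneven at 4.26, 0.634 and 3.01 FPKM in ND-fed mice and 0.234, 0.353 and 0.637 FPKM in control mice. The lowest ND-fed mouse lay within the control range, and the log2 fold change was -1.22 (SE 0.44, limma, adjusted p = 0.0533). The gene rested on 6 to 119 fragments per mouse and passed the level filter through 2 ND-fed mice and 1 LA-treated mouse, so its count among the tested members is fixed in part by that filter. Without ND replicate 2, the mouse at 0.634 FPKM, its log2 fold change was -1.72 and past both thresholds.

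In numbers, 1 of the 6 tested members was lower past both thresholds in control against ND-fed mice, as were 1.63% of all tested genes. By the adjusted p alone 3 of 6 were lower, against 19.1% of all genes, and the ranges of the groups did not overlap, with control lower, for 3 of 6, against 25.7% of all genes. The median of the 6 log2 fold changes was -0.77, and that of all genes -0.04. Since the family was picked from these results, nothing more is read from the counts.

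**Figure D1:**
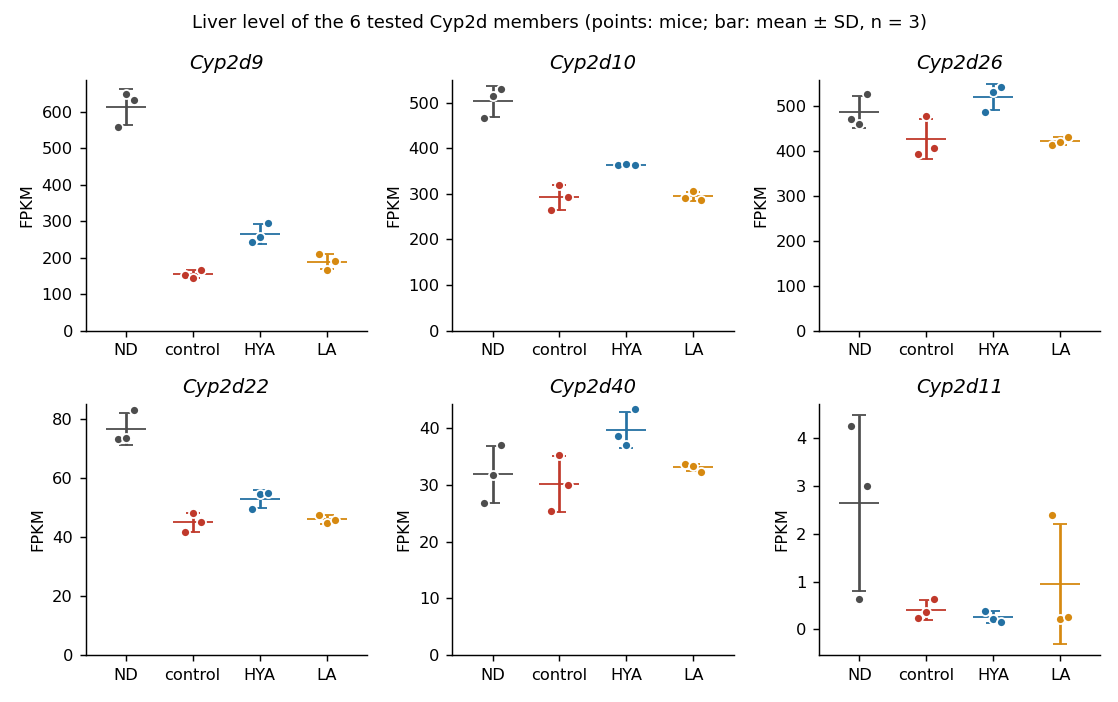
FPKM (vertical axis, linear) of the 6 tested Cyp2d genes by diet group, with 1 point per mouse and a bar for the mean ± SD of 3 mice. Cyp2d9 lies at 557 to 649 FPKM in ND-fed mice and at 145 to 296 FPKM in the other 9 mice, whereas the Cyp2d26 ranges of ND-fed and control mice overlap.

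The make-up of the Cyp2d RNA changed with the diet, a measure in which the scaling of the libraries cancels out. Cyp2d9 held 35.8% ± 1.5 (SD, n = 3) of the summed FPKM of the members in ND-fed mice and 16.4% ± 2.0 in control mice. Cyp2d26 went the other way, from 28.4% ± 1.5 to 44.8% ± 1.7, while the Cyp2d10 share was 29.4% ± 0.31 and 30.8% ± 0.51, a small difference in which the ranges did not overlap. The order of the 3 abundant transcripts was therefore Cyp2d9 first in every ND-fed mouse and Cyp2d26 first in every mouse of the 3 high-fat groups. In HYA-treated mice Cyp2d9 held 21.3% ± 1.2 and Cyp2d26 41.8% ± 0.80, and in LA-treated mice the shares were 19.2% ± 1.9 and 42.7% ± 1.2. The ratio of Cyp2d9 to Cyp2d26 was 1.26 ± 0.13 (ND-fed), 0.367 ± 0.057 (control), 0.510 ± 0.033 (HYA-treated) and 0.450 ± 0.054 (LA-treated, all SD, n = 3). Its lowest HYA-treated value, 0.482, was above the highest control value, 0.412, whereas the LA-treated values of 0.399 to 0.507 overlapped both. In contrast the ratio of Cyp2d22 to Cyp2d10 was 0.153, 0.155, 0.146 and 0.157 in the 4 groups in the same order, and its ranges overlapped in all of them. The summed FPKM of the members averaged 1714 ± 108 under ND, 949 ± 73 under the control diet, 1242 ± 60 with HYA and 985 ± 13 with LA. Every HYA-treated liver, at 1180 or more, was above every control liver, at 1025 or less. As a share of the FPKM of all genes, which is free of the scaling, the sum was 0.408% ± 0.015, 0.266% ± 0.011, 0.320% ± 0.011 and 0.275% ± 0.0060.

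**Figure D2:**
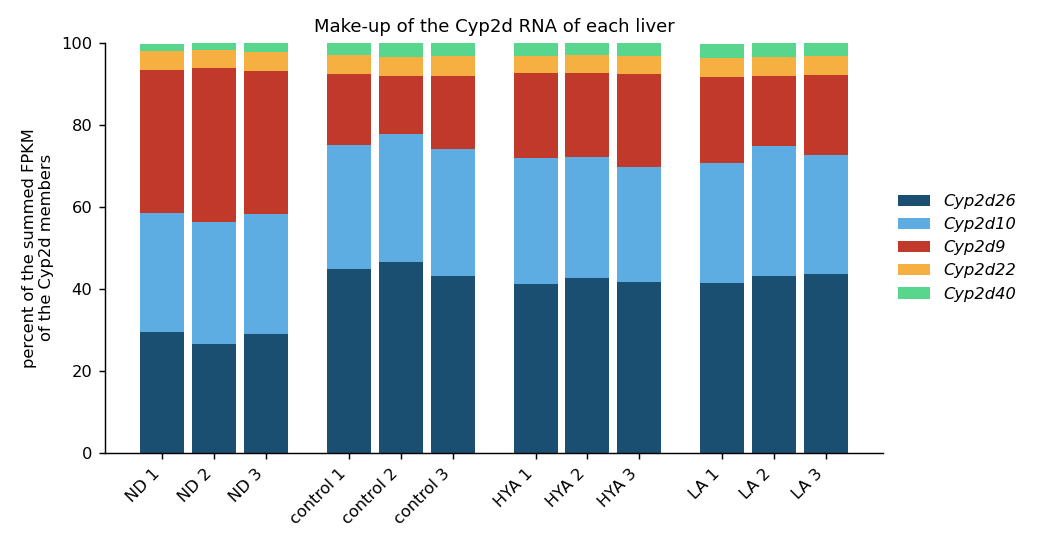
Percent of the summed Cyp2d FPKM (vertical axis) held by each of 5 genes, with 1 stacked bar per mouse, grouped by diet. The Cyp2d9 part takes 34.9% to 37.5% in ND-fed mice and 14.1% to 22.7% in the other 9 mice, while the Cyp2d10 part stays between 28.0% and 31.5% in all 12.

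The second question was whether the HYA supplement changed the family in mice on the high-fat diet. Cyp2d9 rose 1.72-fold over control mice and stayed well below the ND-fed level, Cyp2d10 rose 1.25-fold, and the remaining abundant members were higher by amounts that did not pass the adjusted test. Cyp2d9 stood at 244, 256 and 296 FPKM in HYA-treated mice, all above the control values of 145 to 167 FPKM. Its log2 fold change was 0.77 (SE 0.10, 95% interval 0.55 to 1.00, limma, adjusted p = 0.0141), below the fold threshold. Cyp2d10 was at 363, 365 and 364 FPKM, all above the highest control mouse at 319 FPKM. Its log2 fold change of 0.32 (SE 0.07) was just past the adjusted threshold (limma, adjusted p = 0.0478) and was no longer past it under TPM, where the log2 fold change was 0.19 (adjusted p = 0.0641). The Cyp2d10 call held without ND replicate 1 or control replicate 2 and was lost without any other single mouse, with adjusted p from 0.0573 without ND replicate 3 to 0.170 without control replicate 1. Leaving out HYA replicate 2 also ended the Cyp2d9 call (limma, adjusted p = 0.0674). In a fit of the control and HYA groups alone neither gene passed (limma, adjusted p = 0.111 for Cyp2d9 and 0.164 for Cyp2d10).

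Cyp2d26 was at 486, 532 and 542 FPKM in HYA-treated mice, above the control values of 394 to 477 FPKM, with a log2 fold change of 0.29 (SE 0.08, limma, adjusted p = 0.0869). Cyp2d40 was at 38.6, 37.1 and 43.4 FPKM against 25.4 to 35.2 FPKM in control mice, with a log2 fold change of 0.39 (SE 0.13, limma, adjusted p = 0.122). Cyp2d22 was at 49.5, 54.6 and 55.1 FPKM against 41.9 to 48.2 FPKM, with a log2 fold change of 0.23 (SE 0.07, limma, adjusted p = 0.112). For these 3 genes the groups did not overlap in FPKM, but under TPM they did. Without control replicate 2, the control mouse in which Cyp2d26 and Cyp2d40 were highest, both genes passed the adjusted threshold (limma, adjusted p = 0.0189 and 0.0424). Cyp2d11 was at 0.389, 0.208 and 0.153 FPKM, within or below the control range.

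Against control mice, 0 of 6 members passed both thresholds (limma), as did 0.307% of all genes, and limma-voom on the recovered fragments also gave 0. By the adjusted p alone 2 of 6 were higher, against 1.57% of all genes, and 5 of 6 had an unadjusted p under 0.05, against 18.5% of all genes. The HYA-treated mice were all above the control mice for 5 of 6 members in FPKM, against 12.7% of all genes, and for 2 of 6, Cyp2d9 and Cyp2d10, in TPM, against 4.17% of the 13588 genes past the filter in TPM, a count added after the values had been seen. The median of the 6 log2 fold changes was 0.30, and that of all genes 0.02. This comparison shares the control mice with control against ND, so opposite signs in them are not independent.

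**Figure D3:**
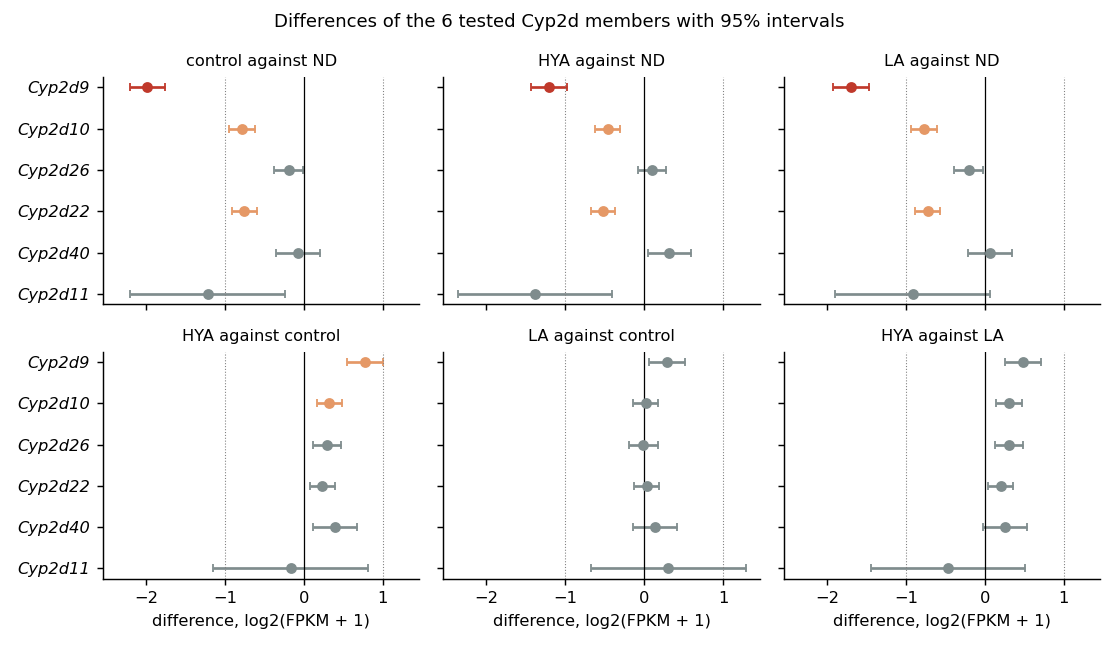
Difference in log2(FPKM + 1) (horizontal axis) for each tested Cyp2d gene in the 6 comparisons, with 95% intervals from the limma fit. Red points passed both thresholds, orange points the adjusted p alone and grey points neither, and dotted lines mark a log2 fold change of -1 and 1. Cyp2d9 lies farthest from 0 among the members in control against ND-fed mice at -1.98, and the panels of LA against control and HYA against LA hold only grey points.

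LA, given at the same dose and for the same time, was the parent fatty acid against which HYA can be set: HYA carries a hydroxyl group where LA has a double bond. In LA-treated against control mice 0 of 6 members passed both thresholds, as did 0% of all genes (limma), 1 of 6 had an unadjusted p under 0.05, against 2.65% of all genes, and limma-voom gave 0 past the thresholds as well. That member was Cyp2d9, at 209, 167 and 191 FPKM in LA-treated mice. The lowest LA-treated mouse equalled the highest control mouse to 3 digits, 167 FPKM, and the log2 fold change was 0.29 (95% interval 0.06 to 0.51, limma, adjusted p = 0.999). By a margin in the further digits its ranges did not overlap, the case for 1 of 6 members against 3.94% of all genes in the higher direction, and in TPM they did overlap. Cyp2d10 was at 291, 306 and 286 FPKM in LA-treated mice, within the control range, with a log2 fold change of 0.01 (95% interval -0.15 to 0.17). Cyp2d26 was at 413, 419 and 430 FPKM, also within the control range, with a log2 fold change of -0.01 (95% interval -0.19 to 0.17). Cyp2d22 was at 47.5, 44.7 and 45.9 FPKM and Cyp2d40 at 33.6, 33.3 and 32.3 FPKM, both within the control range, with log2 fold changes of 0.03 (95% interval -0.13 to 0.19) and 0.14 (95% interval -0.14 to 0.42). Cyp2d11 was at 2.39 FPKM in 1 LA-treated mouse and at 0.206 and 0.254 FPKM in the other two.

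HYA and LA were compared directly as 1 pair of compounds over the 6 genes. None of the 6 members passed both thresholds, against 0.108% of all genes, and 0 passed the adjusted p alone in limma, against 0.487% of all genes. An unadjusted p under 0.05 was reached by 4 of 6, against 17.2% of all genes. Cyp2d9 passed the adjusted p with limma-voom (adjusted p = 0.0444) and with only genes of at least 5 FPKM in the limma fit (adjusted p = 0.0419). The difference was 0.49 for Cyp2d9 (95% interval 0.26 to 0.71, limma, adjusted p = 0.0626) on the log2 scale, 0.31 for Cyp2d10 (0.15 to 0.47, adjusted p = 0.0728) and 0.30 for Cyp2d26 (0.12 to 0.48, adjusted p = 0.1003). For Cyp2d40 it was 0.25 (95% interval -0.02 to 0.53) and for Cyp2d22 0.20 (0.04 to 0.36). The HYA-treated mice were all above the LA-treated mice for 5 of 6 members, against 14.8% of all genes, and for 4 of 6 in TPM, against 4.74% of all genes in TPM. The intervals of Cyp2d9, Cyp2d10, Cyp2d26 and Cyp2d22 lay above 0 before adjustment over all genes. Without control replicate 2, which enters this comparison through the shared spread only, Cyp2d9, Cyp2d10 and Cyp2d26 passed the adjusted p (limma, 0.0435, 0.0398 and 0.0464), and without control replicate 1 Cyp2d10 did (0.0389).

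Both supplemented groups were also set against ND-fed mice. Cyp2d9 was 2.31-fold lower in HYA-treated mice, with a log2 fold change of -1.21 (SE 0.10, limma, adjusted p = 3.39e-05), and 3.24-fold lower in LA-treated mice, with -1.69 (SE 0.10, limma, adjusted p = 2.03e-06). It was the 1 of 6 members lower past both thresholds in each, against 0.614% of all genes with HYA and 1.36% with LA. By the adjusted p alone the same 3 members, Cyp2d9, Cyp2d10 and Cyp2d22, were lower in both, against 7.85% of all genes with HYA and 16.6% with LA. Cyp2d10 differed from ND-fed mice by -0.46 with HYA and -0.77 with LA, and Cyp2d22 by -0.52 and -0.72. Cyp2d26 differed by 0.10 (95% interval -0.08 to 0.28) with HYA and by -0.21 (-0.39 to -0.03) with LA. Cyp2d40 was higher in all 3 HYA-treated mice than in all 3 ND-fed mice, by 0.32 on the log2 scale (SE 0.13, limma, adjusted p = 0.110), and passed the adjusted threshold under TPM, with limma-voom and without ND replicate 3 (adjusted p = 0.0211, 0.0201 and 0.04997). Without control replicate 2 Cyp2d26 passed it in LA-treated against ND-fed mice (adjusted p = 0.0376). These comparisons share the ND-fed mice with each other and with control against ND, so their likeness is no result.

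The differences were then set against position on the chromosome. The members span 424 kb from Cyp2d22 at chr15:82370527-82380260 to Cyp2d26 at chr15:82790101-82794294. Cyp2d22, Cyp2d11, Cyp2d10 and Cyp2d9 lie at one end, and Cyp2d40 and Cyp2d26 at the other. The 4 genes at the first end had log2 fold changes of -0.75, -1.22, -0.78 and -1.98 in control against ND-fed mice, and the pair at the other end -0.07 and -0.19. The -1.22 is that of the sparse Cyp2d11, whose ranges overlapped and which passed the level filter through few mice. Between the ends, the untested Cyp2d12 was 1.56 higher with limma-voom, and Gm27463, a microRNA gene model, was lower at -1.11. Whether position bears on the differences was not tested. Across the 12 mice, Cyp2d9, Cyp2d10 and Cyp2d22 rose and fell together, with Pearson r of 0.958 to 0.976 on the log2 scale, whereas Cyp2d40 had r of 0.08 to 0.19 with them and 0.73 with Cyp2d26. Cyp2d26 itself had r of 0.645 with Cyp2d10, 0.597 with Cyp2d22 and 0.527 with Cyp2d9, between these values. These values describe 12 mice in 4 diet groups and take in the differences between the groups. Within 250 kb of the members 11 other genes were tested, 3 of them Cyp2d pseudogenes. Outside the cluster lay Smdt1, a regulator of the mitochondrial calcium uniporter, at 0.29 (SE 0.07, limma, adjusted p = 0.00978), and Ndufa6, a subunit of respiratory complex I, at -0.05 (SE 0.05, adjusted p = 0.411). Srebf2, which encodes a regulator of cholesterol synthesis, differed by 0.13 (SE 0.09) and did not pass the threshold.

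Of 10 further Cyp2d rows, all pseudogenes, 3 were tested and 3 were listed at 0 in every mouse. Cyp2d37-ps stood at 45.2 to 81.3 FPKM over the 12 mice and Cyp2d38-ps at 28.2 to 57.3 FPKM, and the mean of each exceeded that of the protein-coding Cyp2d40 in all 4 groups. Neither differed in control against ND-fed mice beyond its spread, with log2 fold changes of -0.08 (SE 0.17) and -0.21 (SE 0.20). Cyp2d36-ps, at 4.03 to 10.9 FPKM, differed by 0.44 (SE 0.28, limma, adjusted p = 0.241). The 2 untested members were close to absent. Cyp2d12 was at 0.0287 to 0.264 FPKM, from 2 to 22 fragments per mouse, and was 1.56 higher on the log2 scale under the control diet than under ND with limma-voom on fragments (adjusted p = 0.0399). Cyp2d34 had 0 to 2 fragments per mouse, which is under the 3 fragments taken as the limit of a count of 0. Cyp2d13 is a transcribed pseudogene in RefSeq at chr15:82636750-82642045, and 2 other rows of the table lie over it. One is Gm27463, a 57-base microRNA gene model on the minus strand, at 248, 309 and 290 FPKM in ND-fed mice and 98.7, 193 and 114 FPKM in control mice. It was lower past both thresholds with a log2 fold change of -1.11 (SE 0.26, limma, adjusted p = 0.00769). Its FPKM rest on 97 to 309 fragments per mouse over 57 bases, and whether these belong to the model or to a longer transcript over it was not tested. The other is Gm49431, an antisense gene on the plus strand, with a log2 fold change of -0.77 (SE 0.19, limma, adjusted p = 0.00949) in control against ND-fed mice and 0.67 (SE 0.19, adjusted p = 0.0870) in HYA-treated against control mice. Strand use in counting is not given in the sources used here, so reads of an antisense gene and of the gene under it cannot be told apart.

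**Figure D4:**
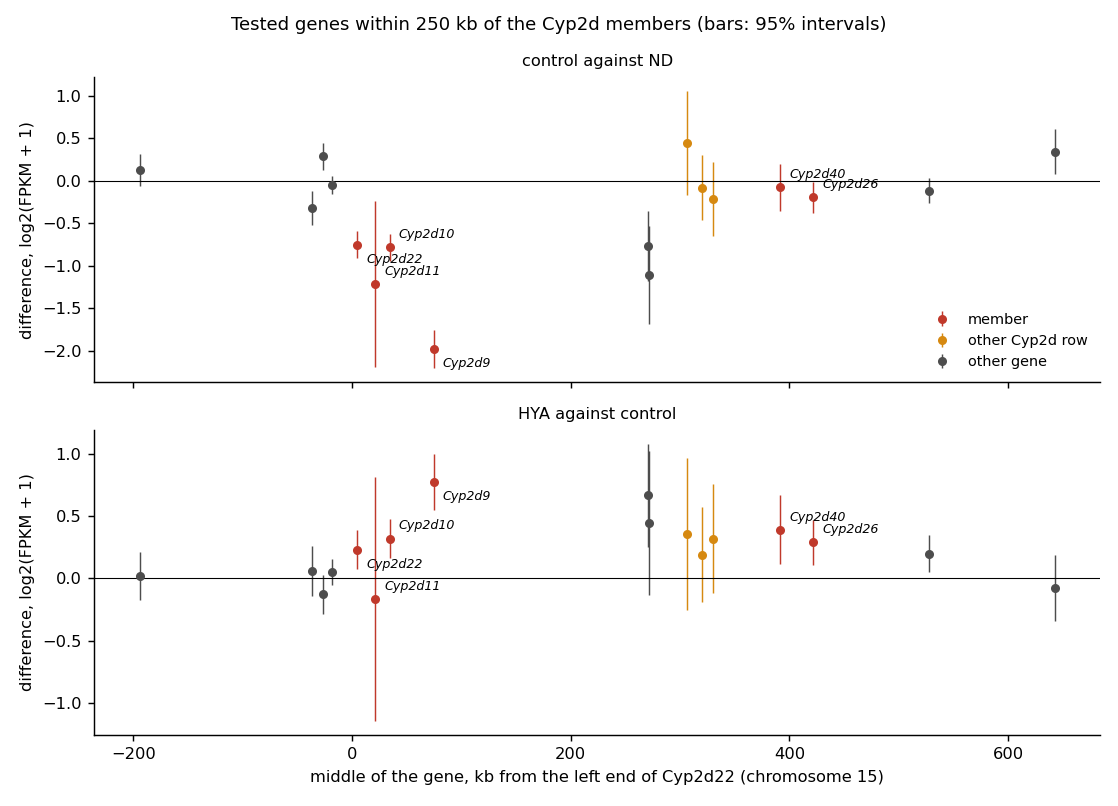
Difference in log2(FPKM + 1) (vertical axis, bars are 95% intervals) of each tested gene within 250 kb of the members, by the distance in kb of its middle from the left end of Cyp2d22, for control against ND (top) and HYA against control (bottom), with members in red, Cyp2d pseudogenes in orange and other genes in grey. In control against ND-fed mice the 4 members near 0 kb, among them the sparse Cyp2d11, lie between -0.75 and -1.98 and the 2 members near 400 kb at -0.07 and -0.19. Between them the grey point of Gm27463 lies at -1.11.

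Genes with the most similar course over the 12 mice were sought for the 3 members with the largest differences, among 10124 tested genes outside the family whose symbol is not a clone name, by Pearson r on the log2 scale. For Cyp2d9 they were C6, a complement component (r = 0.986), Aox3, an aldehyde oxidase (r = 0.980), and Dock4 (r = 0.979). C6 had means of 76.3, 36.9, 49.2 and 40.3 FPKM under ND, control, HYA and LA, and Aox3 197.9, 55.7, 81.3 and 64.8 FPKM. For Cyp2d10 they were Mup1, a major urinary protein (r = 0.993), Proc, the anticoagulant protein C (r = 0.991), and Cyp7b1, an oxysterol hydroxylase (r = 0.991). Mup1 had means of 41.1, 1.60, 6.44 and 1.71 FPKM in the same order, and its values are uncertain because the Mup genes are nearly identical in sequence. For the sparse Cyp2d11 the best were Zfp516 (r = 0.901), Tpst2 (r = 0.898) and Eml3 (r = 0.880). These r take in the differences between the diet groups, and the genes were picked as the highest of all searched. In control against ND-fed mice 35.3% of all tested genes differed by the adjusted p (limma), so a high r does not mark a particular partner.

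Related genes were drawn up in lists with earlier results of these livers known, and are described by counts and medians. Of all tested genes, 3.88% passed both thresholds in control against ND-fed mice and 0.307% in HYA-treated against control mice. By the adjusted p alone, 19.1% of all tested genes were lower and 16.2% higher in control against ND-fed mice. Of 41 other Cyp2 genes 25 were tested, and in control against ND-fed mice 8 were lower and 5 higher past both thresholds, with a median log2 fold change of -0.62. The 4 of lowest p were Cyp2b9 (3.23, SE 0.19), known as a female-biased P450, and Cyp2c54 (-4.27, SE 0.25), Cyp2c29 (-2.59, SE 0.15) and Cyp2c38 (1.16, SE 0.07), of a subfamily that oxidises fatty acids and drugs. The Cyp2c genes are close relatives that may share reads. In HYA-treated against control mice 3 of the 25 were higher past both thresholds, Cyp2c54 (2.40, SE 0.25), Cyp2c37 (1.42, SE 0.33) and Cyp2c50 (1.38, SE 0.21), and 1 was lower, Cyp2b9 (-1.04, SE 0.19), while Cyp2c38 was at -0.03 (SE 0.07). This balance moved with the scaling: 2 of 26 were higher and 3 lower under TPM, and 3 of 27 higher and 3 lower with limma-voom. Of 51 Cyp genes outside family 2, 29 were tested, 8 were lower and 3 higher past both thresholds in control against ND-fed mice, and the median was -0.43, a value that shrank to -0.07 under TPM and turned to 0.02 with limma-voom. The 4 of lowest p were the steroid hydroxylase Cyp17a1 (4.49, SE 0.13), which rose from 1.67 to 59.6 FPKM, Cyp3a11, a drug-inducible P450 (-1.84, SE 0.08), and the fatty acid hydroxylases Cyp4a31 (1.39, SE 0.08) and Cyp4f14 (-1.54, SE 0.11). Cyp4a31 averaged 0.92 FPKM under ND and 4.03 FPKM under the control diet, and passed the level filter through the high-fat groups. In HYA-treated against control mice Cyp3a11 was at -0.08 (SE 0.08), and 2 of the 29, Cyp4a12a and Cyp7b1, were higher past both thresholds. Under TPM and with limma-voom the count of this list was 1.

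Of 14 genes listed as male-biased in liver, 13 were lower past both thresholds in control against ND-fed mice, with a median log2 fold change of -2.25, and the 4 of lowest p were Cyp2c29, Susd4 (-1.91, SE 0.12), Cyp4a12b (-2.98, SE 0.22) and C6 (-1.03, SE 0.09). Under TPM 9 of the 14 were past both thresholds and 12 past the adjusted p. In HYA-treated against control mice 3 were higher past both thresholds, the organic anion transporter Slco1a1 (2.30, SE 0.42), Cyp4a12a (1.35, SE 0.21) and Cyp7b1 (1.01, SE 0.20), with a median of 0.71. These 3 had been at -3.14, -2.29 and -2.20 in control against ND-fed mice, and the first 4 were at 0.93, 0.54, 0.78 and 0.41 with HYA. Both comparisons use the same control mice, so opposite signs in them are not independent. Of 16 genes listed as female-biased, 7 were tested and 6 were higher past both thresholds in control against ND-fed mice, with a median of 1.96, among them Cyp2b13 (1.96, SE 0.20) and Cyp2a4 (4.37, SE 0.50) beside Cyp17a1 and Cyp2b9, and Cyp3a41a and Sult2a1 were at 0 in every mouse. Cyp2a4 averaged 0.60 FPKM under ND and 34.5 FPKM under the control diet, and Cyp2b13 0.34 and 4.28 FPKM. Such genes passed the level filter through the high-fat groups, so the count of higher genes is fixed in part by that filter. Under TPM 9 were tested, and 7 were higher and 1 lower past both thresholds. Among 10 tested genes of the growth hormone and STAT5 list, 1 was lower past both thresholds, Igfals, a binding partner of circulating IGF1 (-1.53, SE 0.10), which was higher with HYA than in control mice (0.57, SE 0.10, limma, adjusted p = 0.0205). By the adjusted p 3 of these 10, Igfals among them, were lower and 0 higher in control against ND-fed mice, and under TPM 3 were lower and 1 higher. Among 19 liver transcription factors and nuclear receptors, 1 was lower past both thresholds, the hepatocyte factor Foxa3 (-1.04, SE 0.11). By the adjusted p 6 of the 19 were lower and 0 higher, against 19.1% and 16.2% of all tested genes. Under TPM the Foxa3 call was lost, and 3 of the 19 were lower and 3 higher by the adjusted p.

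In control against ND-fed mice 0 genes of the lists for electron supply to P450, heme synthesis and heme breakdown passed both thresholds. Their counts by the adjusted p are on few genes and stand beside 19.1% lower and 16.2% higher of all tested genes. Por, the reductase, was at -0.32 (limma, adjusted p = 0.595). Of 6 tested genes for electron supply to P450, 2 were higher by the adjusted p, Pgrmc2 (0.52, SE 0.09), a heme-binding membrane protein, and Cyb5r3 (0.34, SE 0.06), cytochrome b5 reductase, in control against ND-fed mice, and 3 were lower, a count that was 0 under TPM. Of 8 heme synthesis genes 4 were lower by the adjusted p, with the lowest p for Cpox (-0.31, SE 0.05) and Urod (-0.23, SE 0.06), both in the synthesis of the heme ring, whereas under TPM 0 were lower and 2 higher. Of 4 heme breakdown genes Hmox1, the inducible heme oxygenase, was higher (0.53, SE 0.13) and 2 were lower, among them the biliverdin reductase gene Blvrb (-0.31, SE 0.08), and under TPM 0 were lower. Markers of the position of hepatocytes along the lobule included 11 pericentral and 9 periportal genes, and 1 of each was lower past both thresholds, Cyp1a2 (-1.64, SE 0.24) and the histidine-degrading enzyme Hal (-1.84, SE 0.17). By the adjusted p, 4 pericentral genes were lower and 1 higher, and 4 periportal genes were lower and 2 higher. Under TPM 4 pericentral genes were lower and 3 higher, and 3 periportal genes were lower and 2 higher. Past both thresholds, 1 periportal gene was higher under TPM and with limma-voom, and 1 pericentral gene was higher with limma-voom.

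**Figure D5:**
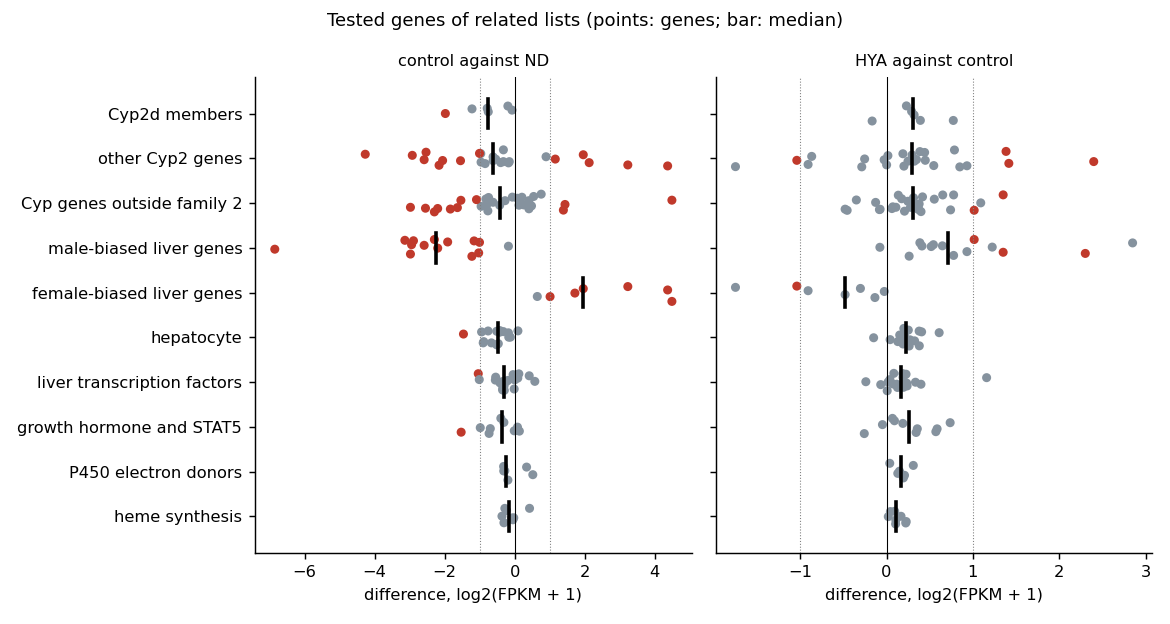
Difference in log2(FPKM + 1) (horizontal axis) of the tested genes of 10 lists in control against ND-fed mice and in HYA-treated against control mice, with 1 point per gene, red where both thresholds were passed, and a black bar at the list's median. The Cyp2d median is -0.77 on the left and 0.30 on the right, and the male-biased list has -2.25 and 0.71.

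Cell type markers moved with the diet as well. Their counts in control against ND-fed mice stand beside 3.88% of all tested genes past both thresholds and 19.1% lower by the adjusted p. All 16 hepatocyte markers were above the level filter, and their summed level was 53876 to 57502 FPKM under ND, 37601 to 42806 under the control diet, 47733 to 49947 with HYA and 40761 to 42509 FPKM with LA, so that ND-fed mice were highest and HYA-treated mice next, as for the summed Cyp2d level. Of the 16, 12 were lower by the adjusted p in control against ND-fed mice, 1 of them past both thresholds, Cps1 (-1.46, SE 0.17), with a median of -0.49, which was -0.25 under TPM. The 10 stellate cell and fibroblast markers were all tested, and 4 were higher past both thresholds, Col1a1 (2.55, SE 0.21), Col3a1 (2.25, SE 0.16), Col1a2 (1.79, SE 0.14) and Lum (1.43, SE 0.13). Col1a1 and Col1a2 averaged 0.98 and 0.86 FPKM under ND and passed the level filter through the high-fat groups. Their summed level was 36.6 to 47.8 FPKM under ND, 82.6 to 109.7 under the control diet, 65.7 to 80.6 with HYA and 89.7 to 108.5 FPKM with LA. In HYA-treated against control mice 4 of the 10 were lower by the adjusted p, against 1.23% of all tested genes, 1 of them past both thresholds, Col1a1 (-1.12, SE 0.21). Of 9 tested macrophage markers Gpnmb (1.69, SE 0.17) and Cd68 (1.07, SE 0.23) were higher and Marco (-1.98, SE 0.52) was lower past both thresholds, and the sums of the 10 listed, 147 to 240 FPKM in ND-fed and 205 to 221 FPKM in control mice, overlapped. Gpnmb averaged 0.039 FPKM under ND and 2.37 FPKM under the control diet. It passed the level filter through the high-fat groups, so its count as higher is fixed in part by that filter. Of 7 endothelial markers Lyve1 (1.37, SE 0.18) and of 3 tested bile duct markers Spp1 (2.38, SE 0.28) were higher past both thresholds, with sums of 55.5 to 67.8 against 77.7 to 78.9 FPKM and of 19.1 to 27.8 against 77.9 to 171.7 FPKM. Spp1 alone, at means of 21.0 and 117.7 FPKM, made up nearly all of the bile duct sum. The 5 lymphocyte markers summed to 1.11 to 3.63 FPKM over all mice, and 0 were tested. No marker of these lists was at 0 in every mouse. In whole liver, fewer hepatocytes and less RNA per hepatocyte cannot be told apart, and the part of such a change in the Cyp2d values was not tested.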

How the data were processed

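Liver RNA of 12 male mice was sequenced as paired ends of 150 bases on an Illumina HiSeq, and the authors deposited FPKM values for each gene in 1 table. The submitters' processing notes name fastp, HISAT2 2.0.5, featureCounts 1.5.0-p3 and the build GRCm38. The paper's methods call the values TPM, but their sums, 342146 to 429286 per mouse, are not equal, and the deposited values were treated as FPKM. Multiplied by gene length, 100% of the values were whole multiples of 1 step (within 0.02 of a step), from which fragments were recovered for limma-voom, an alternative.

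Genes averaging 1 FPKM or more were tested with limma 3.58.1 in R 4.3.3 (empirical Bayes with trend, two-sided, all 12 mice in 1 fit, pseudocount 1, Benjamini-Hochberg over 11083 genes). The fit was tested on simulated data. Depth, 17169064 to 25220880 fragments per mouse, sets the counting error only. The members and lists were chosen with earlier results of these data known. Named were all members and other Cyp2d rows, up to 4 genes per list and comparison past the thresholds by p, or else the 2 of lowest p, the first 6 tested neighbours by position within 250 kb and any past the thresholds (1 of them is not reported here), and the 3 genes most correlated with each of 3 members. Por was also named, as the electron donor given in the background. Replicate numbers did not pair the mice. Alternatives were TPM, median-ratio size factors, a pseudocount of 0.1, filters of 0 and 5 FPKM, fits of 2 groups, a replicate block, no fold threshold and each mouse left out. The counts of non-overlapping ranges under TPM, and the lists under TPM and limma-voom, were added after the data had been seen. No protein sequence was used.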

Additional observations from a re-analysis of the deposited data

How the results depend on the processing

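Of the 6 counts of members past both thresholds, those of LA against control and HYA against LA remained at 0 under every alternative run, and Cyp2d9 remained the called gene in the comparisons with ND. In control against ND the count of 1 became 2 with limma-voom on recovered fragments (Cyp2d9 and Cyp2d12) and 3 with no threshold on fold change, and it ranged from 1 to 2 with single mice left out. In HYA against ND the count of 1 became 2 with a pseudocount of 0.1 and 3 with no threshold on fold change, and ranged from 1 to 2 with single mice left out. In LA against ND it became 3 with no threshold on fold change and ranged from 1 to 2. The second gene under the left-out mouse was Cyp2d11, in each case without ND replicate 2. In HYA against control the count of 0 became 2 with no threshold on fold change. No result changed its direction among those past a threshold.

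Replicate numbers of different groups did not pair the mice: of 18 same-numbered pairs 3 had a correlation of deviations above 0.1, with a range of -0.396 to 0.294. With the replicate number as a block the count was 2 in control against ND and 2 in HYA against ND (Cyp2d9 and Cyp2d11), and in HYA against LA Cyp2d9 and Cyp2d10 passed the adjusted p (limma, adjusted p = 0.0415 and 0.0431).

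The median of the members in control against ND went from -0.77 to -0.54 under TPM, to -0.58 with limma-voom, where Cyp2d12 also enters, and to -0.47 with no filter on low values, where Cyp2d12 and Cyp2d34 enter. With no filter it went from -0.49 to -0.23 in HYA against ND and from -0.75 to -0.46 in LA against ND, and under TPM from 0.30 to 0.18 in HYA against control. The cause of the difference between the authors' library sizes and the fragment sums was not tested. Over all genes, limma-voom gave 1458 higher and 220 lower calls in control against ND, against 249 and 181 in the limma fit, and TPM gave 747 and 161. In HYA against control the calls were 18 higher and 16 lower, 21 and 144 with limma-voom and 15 and 45 under TPM. Depth was lowest for Cyp2d34, Cyp2d12 and Cyp2d11, at 0 to 2, 2 to 22 and 6 to 119 fragments per mouse.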
